A study of Mus musculus with 2 samples.

Results

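The Bcl2 family genes, 8 in number, were followed across 2 droplet libraries of mouse iPSCs, which are body cells turned back by reprogramming factors into pluripotent stem cells. The 8 genes, of 27998 in the matrix, were chosen by name: Mcl1, Bcl2l1 and Bcl2, Bax and Bak1, and Bid, Bbc3 and Bcl2l11. The knockout library (KO) came from SRFΔ/Δ cells, which lack serum response factor, and the wild-type library (WT) from SRFf/f cells, whose floxed alleles were not recombined. Both were cultured with serum and captured on the 10x Genomics Chromium platform. The labels do not say how many clones or cultures stand behind a library, which Srf exons were removed or which Cre was used. With 1 library per genotype there was no replicate and no test between genotypes, and every interval below is a 95% interval of counting error only.

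Cells entered with at least 1000 detected genes and under 5 UMIs (unique molecular identifiers, each standing for 1 captured RNA molecule) summed over Col1a2, Col3a1 and Acta2, genes of fibroblast feeder cells. This kept 1046 of 1073 KO cells and 942 of 954 WT cells. They were divided by the share of UMIs from the 13 genes of mitochondrial DNA. Under 1% lay 244 KO and 16 WT cells, between 1 and 10% lay 731 KO and 893 WT cells, and over 10% lay 71 KO and 33 WT cells. Median depth differed among these pools, from 24423 UMIs in KO and 26656 in WT at 1 to 10% to 8632 in KO and 16568.5 in WT under 1%, and 7668 and 7054 over 10%. All 7 pluripotency markers checked were detected in each of the 6 pools, and Srf gave 3 UMIs in the KO cells against 206 in the WT cells. Since the deleted exons are not stated, a Srf tag may lie outside them. At least 2 UMIs of a primitive endoderm list were carried by 155 of the 731 KO cells and 22 of the 893 WT cells at 1 to 10%, and 2 cell barcodes occurred in both libraries.

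The Bcl2 family governs the mitochondrial route to apoptosis. Bax and Bak1 encode the effectors that permeabilise the outer mitochondrial membrane, while Mcl1, Bcl2l1 (which encodes Bcl-xL, and by splicing Bcl-xS) and Bcl2 encode guardians that hold the effectors and their activators in check. Bid, Bbc3 (Puma) and Bcl2l11 (Bim) encode BH3-only proteins, which engage the guardians or activate the effectors. Pluripotent cells are known to be highly sensitive to apoptosis, and MCL1 protein and mRNA are known to turn over quickly. The promoter of human MCL1 has been described as a target of SRF together with ETS partners of the ternary complex factor group.

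Because one of the 2 genotypes lacks SRF, the RefSeq promoters of the members (GRCm38.p6, from 250 bases before to 50 after each start, 13 promoters for 8 genes) were searched for the CArG box that SRF binds, on either strand. An exact CArG box was in 0 of the 13 promoters, and in 1.63% of the 32851 mouse promoters in the table. With 1 letter of its A/T core free to be another base, 1 of the 13 held a match, against 9.98% of all promoters. That match lay in Mcl1 and began 8 bases before the RefSeq start, which lies upstream of the GENCODE start given below. The letters CCGGAAG, a core of ETS-family sites, were searched on both strands and were in 3 of the 13 promoters, 1 each of Mcl1, Bcl2l11 and Bcl2l1, and in 8.86% of all. A pair of windows is shown because both hold these letters, with the matches in capitals: CCGGAAG followed by the CArG-like CCTTTTACGG on chr3:95658633-95658722 (plus strand) for Mcl1, and the reverse complement of CCGGAAG on chr2:128125908-128125964 (plus strand) for Bcl2l11.
Mcl1: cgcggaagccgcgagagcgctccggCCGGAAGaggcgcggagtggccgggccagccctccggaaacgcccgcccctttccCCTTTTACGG
Bcl2l11: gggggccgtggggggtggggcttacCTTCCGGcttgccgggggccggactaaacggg
A match describes letters only, and no binding was measured here.

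Levels are given as CPM, UMIs per 1e+06 UMIs of nuclear-encoded genes summed over the cells of a pool, with mitochondrial UMIs left out of the total because they define the pools. CPM were not scaled to gene length, so levels were compared between pools of the same gene. Ratios are log2 ratios of summed UMIs with 0.5 counts added to each sum, and a gene was called higher or lower at 1.5-fold, among genes of at least 10 CPM on average in the pools compared.

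Among the guardians, Mcl1 (GRCm38 chromosome 3, 95658788 to 95663176, plus strand) was measured best. In KO its level was 60.7 CPM (51.9 to 70.4, 172 UMIs) under 1%, 229 CPM (222 to 236, 3989 UMIs) at 1 to 10%, and 269 CPM (222 to 322, 117 UMIs) over 10%. In WT it was 144 CPM (103 to 195, 41 UMIs), 219 CPM (213 to 226, 4929 UMIs) and 188 CPM (134 to 256, 40 UMIs) in the same order. The KO cells under 1% thus stood lowest of the 6 pools, with an interval that met no other, although the WT interval under 1% reached down to 60.8 CPM once a single cell described below was left out. From there the order ran through WT under 1%, WT over 10%, WT at 1 to 10%, KO at 1 to 10% and KO over 10%, and the intervals of neighbours in that order overlapped.

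Bcl2l1 (chromosome 2, 152780668 to 152831728, minus strand) was lower in count. KO levels were 16.6 CPM (47 UMIs) under 1%, 23.7 CPM (21.5 to 26.1, 413 UMIs) at 1 to 10% and 23.0 CPM (10 UMIs) over 10%. WT levels were 17.5 CPM (5 UMIs), 15.1 CPM (13.5 to 16.8, 339 UMIs) and 14.1 CPM (3 UMIs). Only at 1 to 10% were the counts of both libraries large enough to separate them, and there KO was the higher library. Gene-level counts do not tell its splice forms apart.

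Bcl2 (chromosome 1, 106538178 to 106714274, minus strand), the founding guardian of the family, was close to the limit of detection. It gave 18 UMIs in KO (1.03 CPM) and 24 in WT (1.07 CPM) at 1 to 10%, 3 and 1 UMIs over 10%, and 0 under 1% in both libraries. A count of 0 allows up to 1.06 CPM in KO and 10.5 CPM in WT under 1% (3 counts of the pool), so no difference from the 1 to 10% cells was detectable at this depth.

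**Figure D1:**
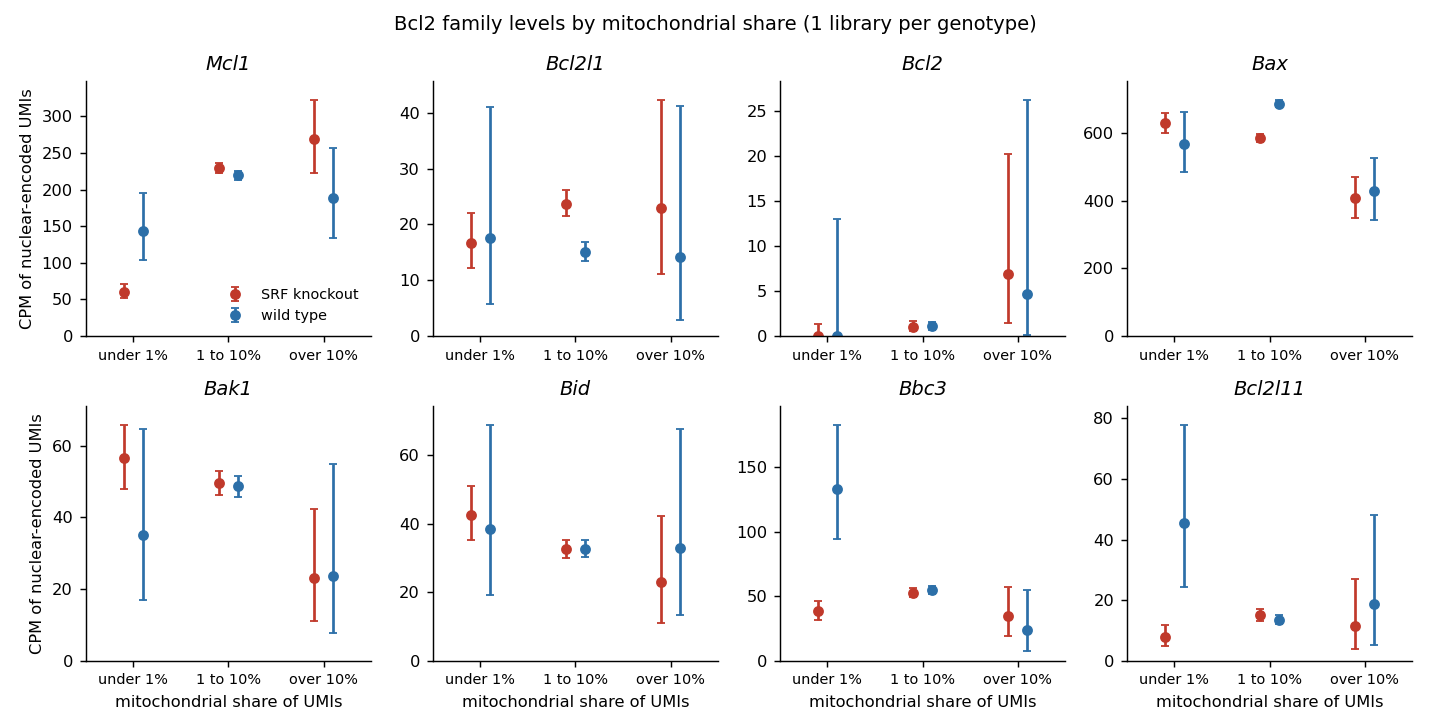
Level of each of the 8 genes in cells under 1%, of 1 to 10% and over 10% mitochondrial share (x axis), in CPM of nuclear-encoded UMIs (y axis, linear, from 0), in the knockout (red) and wild-type (blue) library. Points are pooled levels and bars exact 95% Poisson intervals; the Mcl1 point of knockout cells under 1%, at 60.7 CPM, lies below all other Mcl1 points, while the 6 Bax points lie between 407 and 687 CPM.

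Of the effectors, Bax (chromosome 7, 45461697 to 45466898, minus strand) gave the most UMIs of the 8 genes. In KO it stood at 630.2 CPM (601 to 660.1, 1787 UMIs), 586 CPM (574 to 597, 10203 UMIs) and 407 CPM (349 to 472, 177 UMIs) under 1%, at 1 to 10% and over 10%. In WT it stood at 568 CPM (484 to 663, 162 UMIs), 687 CPM (676 to 698, 15443 UMIs) and 428 CPM (345 to 525, 91 UMIs). In each library the cells over 10% held the lowest Bax level, with ribosomal protein genes, abundant housekeeping mRNAs, also lowest there at 27.5% of nuclear-encoded UMIs in KO and 28.1% in WT, against 36.2 to 39.4% in the other pools. The part of this shift in the Bax level was not tested.

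Bak1 (chromosome 17, 27019810 to 27029009, minus strand), the other effector, had KO levels of 56.4 CPM (160 UMIs), 49.5 CPM (862 UMIs) and 23.0 CPM (10 UMIs). Its WT levels were 35.1 CPM (10 UMIs), 48.6 CPM (1092 UMIs) and 23.5 CPM (5 UMIs). The libraries lay within 1 CPM of each other at 1 to 10%, and the cells over 10% were lowest in both, on 10 and 5 UMIs.

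The BH3-only gene Bid (chromosome 6, 120891930 to 120916853, minus strand), whose protein is activated by caspase cleavage, had KO levels of 42.7 CPM (121 UMIs), 32.6 CPM (567 UMIs) and 23.0 CPM (10 UMIs), and WT levels of 38.6 CPM (11 UMIs), 32.8 CPM (736 UMIs) and 32.9 CPM (7 UMIs). Its KO interval under 1% (35.4 to 51.0) lay just above that at 1 to 10% (29.9 to 35.3). Exons of Bid overlap those of Bcl2l13 on the other strand, exons of Bak1 those of Ggnbp1 on the other strand, and exons of Bax those of Gm45808, so counts of these members may hold or lack reads of a neighbour.

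Bbc3 (chromosome 7, 16308393 to 16318205, plus strand), a target of p53, had KO levels of 38.4 CPM (31.6 to 46.4, 109 UMIs), 52.8 CPM (49.4 to 56.3, 919 UMIs) and 34.5 CPM (15 UMIs). In WT it reached 133 CPM (94.3 to 183, 38 UMIs) under 1%, against 54.8 CPM (51.8 to 58.0, 1232 UMIs) and 23.5 CPM (5 UMIs). Bcl2l11 (chromosome 2, 128126038 to 128162547, plus strand) had KO levels of 7.76 CPM (22 UMIs), 15.0 CPM (261 UMIs) and 11.5 CPM (5 UMIs). In WT it was 45.6 CPM (13 UMIs), 13.6 CPM (305 UMIs) and 18.8 CPM (4 UMIs). The high WT values of both genes under 1% came mostly from 1 of the 16 cells, a cell of 58626 UMIs that held 25 of the 38 Bbc3 UMIs, 12 of the 13 Bcl2l11 UMIs and 19 of the 41 Mcl1 UMIs. That cell also held 40 of the 47 UMIs of Cdkn1a, a p53 target that arrests the cell cycle. Over the other 15 cells, Bbc3 stood at 57.3 CPM (30.5 to 98.0), Bcl2l11 at 4.41 CPM (0.112 to 24.6) and Mcl1 at 97.0 CPM (60.8 to 147). The KO cell of most Bbc3 under 1%, of 55706 UMIs, held 8 of the 22 Bcl2l11 UMIs. Its mitochondrial share was 0.9999%, at the very limit of the band, against 0.68% in the WT cell. Over the other 243 KO cells Bcl2l11 stood at 5.03 CPM (2.75 to 8.45).

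The first comparison asks how the family differed between the libraries in cells of 1 to 10%, the bulk of both. Bcl2l1 was higher in KO, with a log2 ratio of 0.65 (0.44 to 0.86), or 1.57-fold. It was the 1 member of the 7 with at least 10 CPM past 1.5-fold, and 0 were lower. Of all 6650 genes of that level, 7.56% were called higher and 2.44% lower, so 1 of 7 is not far from the background share. The median over the 7 members was 0.03, and over all genes 0.10.

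The other members lay near equality. Bax was 0.23 lower in KO on the log2 scale (ratio -0.23, -0.27 to -0.19), and this interval excluded 0. Under 18 alternatives of scaling, cell filter and limits the Bax ratio ran from -0.36 to -0.14. Among cells with under 2 UMIs of the primitive endoderm list, Bax stood at 628 CPM (615 to 641) in KO and 691 CPM (680 to 702) in WT. The part of the list-carrying cells in the Bax ratio was not tested. Mcl1 differed by 0.06 (0.00 to 0.12), Bak1 by 0.03 (-0.10 to 0.16), Bid by -0.01 (-0.17 to 0.15), Bbc3 by -0.06 (-0.18 to 0.07) and Bcl2l11 by 0.14 (-0.10 to 0.39). For Mcl1, the interval covers counting error only, and under 18 alternatives of scaling, cell filter and limits its ratio ran from -0.07 to 0.15. The part of SRF in the Mcl1 level was not tested. With median-of-ratios scaling the Bcl2l1 ratio was 0.52, short of 1.5-fold, and the ratios of Mcl1 (-0.07) and Bak1 (-0.11) changed sign.

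Under 1% the comparison of the libraries rested on 16 WT cells. Mcl1 was lower in KO (-1.26, -1.74 to -0.72), as were Bbc3 (-1.81, -2.34 to -1.22) and Bcl2l11 (-2.58, -3.61 to -1.44), and Bak1 was called higher with an interval that included 0 (0.62, -0.23 to 1.77). These were 3 lower and 1 higher of 7, where 35.6% of all 5841 genes were called lower and 14.2% higher. Without the WT cell described above and the KO cell of most Bbc3, the ratios were -0.73 for Mcl1, -0.68 for Bbc3 and -0.34 for Bcl2l11. Bax (0.15), Bid (0.09) and Bcl2l1 (-0.20) lay within 1.5-fold, each with an interval that included 0, and the signs of Bax and Bcl2l1 changed with the scaling.

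Over 10%, 0 of the 7 members were called higher and 1 lower, Bcl2l11 with 5 against 4 UMIs (-0.74, -2.93 to 1.62), where 18.1% of 7830 genes were called higher and 23.2% lower. All 7 intervals included 0. The Mcl1 ratio was 0.50 (-0.01 to 1.07) and that of Bax -0.08 (-0.45 to 0.31). At these counts, from 3 to 177 UMIs a member and library, a difference between the libraries was not detectable.

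**Figure D2:**
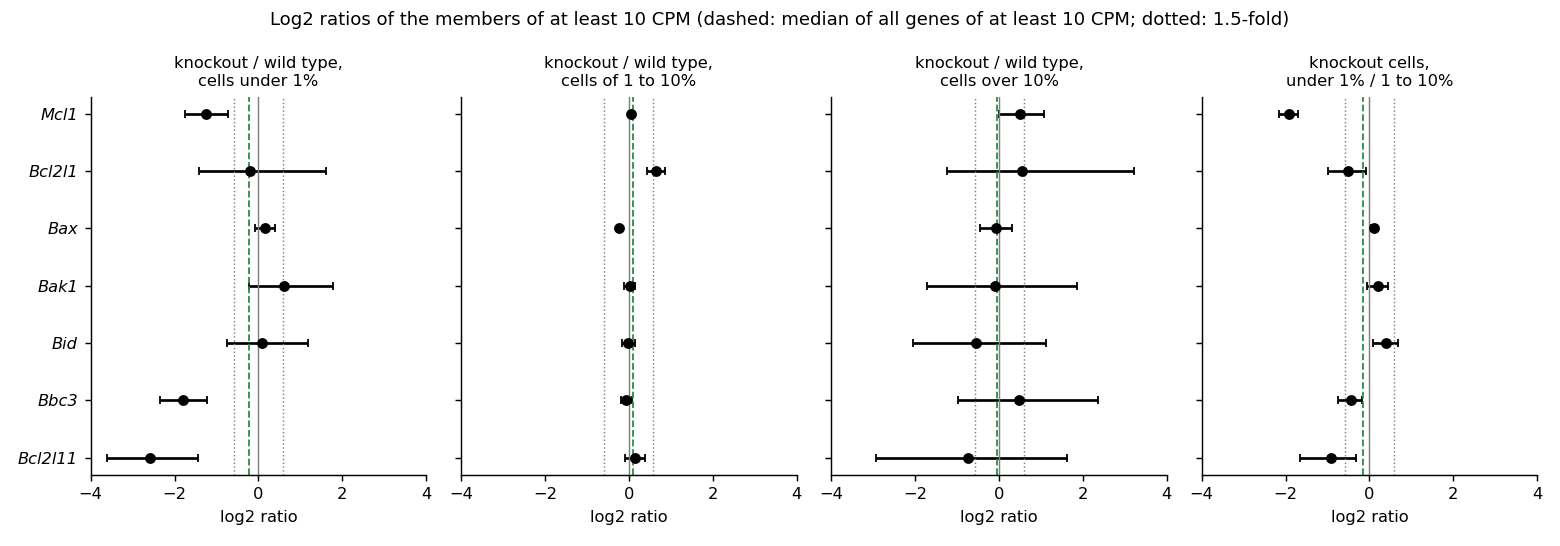
Log2 ratio (x axis) of the 7 members of at least 10 CPM (y axis): knockout over wild type in cells under 1%, of 1 to 10% and over 10%, and, within the knockout, cells under 1% over cells of 1 to 10%. Bars are exact 95% intervals of counting error, the dashed line the median of all genes and dotted lines 1.5-fold; Mcl1 lies near 0 in the second panel and at -1.91 in the last.

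Within the KO library, the cells under 1% held less Mcl1 than those of 1 to 10%. The log2 ratio was -1.91 (-2.15 to -1.70), 3.77-fold lower, and 11.1% of all 6110 genes of at least 10 CPM had a lower ratio. Bcl2l11 was lower too (-0.92, -1.65 to -0.32), and 0 members were higher. Of all genes, 35.4% were called lower and 14.9% higher in this comparison, and the median was -0.15, so 2 of 7 lower is no more than the background share. Bcl2l1 (-0.50, -0.98 to -0.08) and Bbc3 (-0.45, -0.76 to -0.17) were lower by less than 1.5-fold.

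The effectors did not follow Mcl1. Bax had a ratio of 0.11 (0.03 to 0.18), Bak1 of 0.19 (-0.06 to 0.43) and the activator Bid of 0.40 (0.10 to 0.68). Mcl1 therefore made up 8.78% (7.56 to 10.1) of the summed Mcl1 and Bax UMIs in KO cells under 1%, against 28.1% (27.4 to 28.9) at 1 to 10% and 39.8% (34.2 to 45.6) over 10%. In WT these shares were 20.2% (14.9 to 26.4), 24.2% (23.6 to 24.8) and 30.5% (22.8 to 39.2). The WT share under 1% leaned on the single cell rich in Bbc3, which held 19 of the 41 Mcl1 UMIs but 31 of the 162 Bax UMIs. The Mcl1 ratio stayed between -2.13 and -1.17 under the 18 alternatives of scaling, cell filter and limits, being nearest to 0 when the lower limit was set at 2%. It was -1.76 in cells of at least 10000 UMIs and -1.99 without the cells that carried the primitive endoderm list.

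Malat1, a long non-coding RNA held in the nucleus, was also low in the KO cells under 1%. It stood at 1507 CPM there, 8872 CPM at 1 to 10% and 19270.3 CPM over 10%. The KO cell of most Bbc3, which lay at the limit of the band, held 1777 of the 4274 Malat1 UMIs under 1%. The other 243 cells stood at 898 CPM. In WT, Malat1 stood at 10359, 6104 and 20634 CPM, an order that Mcl1 did not share in that library. With a limit of 1000 CPM per cell, set after the values were seen, 217 of the 244 KO cells under 1% lay below it, with Mcl1 at 47.8 CPM (39.4 to 57.5), and 27 above it, with Mcl1 at 125 CPM (95.02 to 161). Cells of low Malat1 also occurred in the 1 to 10% band of KO, where 74 cells had Mcl1 at 83.1 CPM (65.2 to 105) and the other 657 had 237 CPM (229 to 244). Mcl1 was thus lower with low Malat1 in these 2 bands of KO. Over 10% it was not set apart, at 250.03 CPM (165 to 364) in 14 KO cells of low Malat1 and 275 CPM (221 to 338) in the other 57.

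Bax was not lower with low Malat1 in KO cells under 1%, where it stood at 642 CPM (610.1 to 675) in cells of low Malat1 and 571 CPM (505 to 644) in the others, and at 1 to 10% the intervals overlapped, at 565 CPM (516 to 617) and 587 CPM (575 to 599). Over 10% Bax was higher with low Malat1, at 583 CPM (448 to 746) against 349 CPM (288 to 419). Within a band the low-Malat1 KO cells were also shallower, with median depths of 8552 against 14614 UMIs under 1% and 9065.5 against 25126 UMIs at 1 to 10%. Between 500 and 2000 CPM of Malat1 lay 19 of the KO cells under 1% and 28 of those at 1 to 10%. The part of nuclear RNA content and depth in the Mcl1 level was not tested.

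In WT the same comparison of cells under 1% with cells of 1 to 10% gave an Mcl1 ratio of -0.59 (-1.09 to -0.17), and -1.15 without the cell rich in Bbc3. Of all 6426 genes, 16.6% were called lower and 25.1% higher there. Mcl1 was at 75.7 CPM (32.7 to 149) in the 9 WT cells under 1% with low Malat1 and at 184 CPM (127 to 258) in the other 7. Bax there had overlapping intervals, at 681 CPM (533 to 858) and 502 CPM (403 to 617). At 1 to 10%, 7 WT cells of low Malat1 had Mcl1 at 117 CPM (68.1 to 187) and Bax at 454 CPM (351 to 577). Both were higher in the other 886 WT cells, at 220 CPM (214 to 226) and 689 CPM (678 to 700).

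In cells over 10%, compared with 1 to 10% in the same library, Bak1 was the 1 KO member called (-1.04, -2.17 to -0.22), lower on 10 UMIs, where 8.69% of 7408 genes were called lower and 40.5% higher. In cells of at least 10000 UMIs its ratio was 0.11. Bax was lower by less than 1.5-fold in KO (-0.52, -0.75 to -0.31) and past it in WT (-0.68, -0.997 to -0.39). In WT, 3 members were called lower (Bax, Bak1, Bbc3) and 1 higher (Bcl2l11, on 4 UMIs), where 8.33% of 7331 genes were called lower and 49.6% higher. All-gene medians were 0.38 in KO and 0.58 in WT. The Mcl1 ratio was 0.24 (-0.05 to 0.50) in KO, an interval that held the median, and -0.20 (-0.71 to 0.23) in WT, below it. The KO ratio of Mcl1 changed sign with other scalings (-0.22 with median-of-ratios). Summed macrophage markers stood at 494 CPM in the KO cells over 10%, against 0 to 133 CPM in the other pools. Of the 8 markers, Csf1r and Pf4 were at 0 there, and the part of these RNAs in the values was not tested.

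To see whether levels moved gradually, each library was divided into 5 bins of nearly equal cell number by mitochondrial share. Mcl1 in KO was at 56.5, 196, 213, 252 and 258 CPM from the lowest to the highest bin, whose median shares were 0.114, 2.12, 3.799, 5.08 and 7.59%. In WT it was at 195, 209, 224, 227 and 253 CPM over medians of 2.08, 2.82, 3.50, 4.22 and 5.76%. Mcl1 was thus higher in each successive bin of both libraries, with overlapping intervals between most neighbours above the lowest KO bin, and at medians of about 2% KO and WT differed by less than their counting intervals. The step between the lowest KO bin and the next had no counterpart among the WT bins, none of which had a median that low.

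Bax showed no such order. KO bins held 629, 603, 566, 612 and 532 CPM and WT bins 644, 677, 714, 711 and 673 CPM. WT was the higher library in each pair of bins of like rank. Bins of like rank differed in mitochondrial share, with medians of 0.114% in KO and 2.08% in WT in the lowest pair. In that pair the intervals overlapped, at 598 to 662 CPM in KO and 623 to 666 CPM in WT. Bcl2l1 was at 17.7, 20.3, 23.5, 24.3 and 26.7 CPM in KO and 14.9, 13.3, 13.9, 15.3 and 20.4 CPM in WT. Its KO bins ran upward with mitochondrial share, though the intervals of neighbouring bins overlapped. Bid was at 42.1, 36.7, 30.3, 34.3 and 27.7 CPM in KO and 39.1, 32.6, 30.7, 26.8 and 34.5 CPM in WT. Neither library showed a steady order, and the intervals of the lowest and highest bins overlapped in both.

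**Figure D3:**
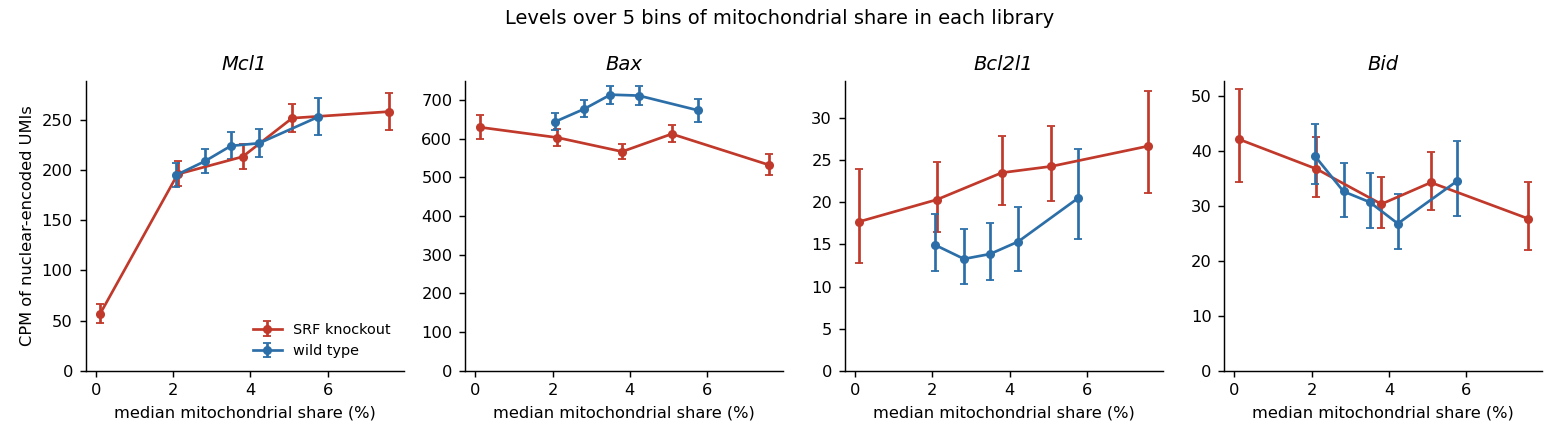
Level in CPM of nuclear-encoded UMIs (y axis, linear, from 0) of Mcl1, Bax, Bcl2l1 and Bid over 5 bins of mitochondrial share in each library, against the median share of the bin in percent (x axis); knockout in red, wild type in blue, bars exact 95% Poisson intervals. Mcl1 of the lowest knockout bin lies at 56.5 CPM, and the other 9 Mcl1 points lie between 195 and 258 CPM.

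Shares of cells with a UMI were taken after each cell was thinned to 5000 nuclear-encoded UMIs. This left out the shallower cells, 17, 9 and 31 of KO under 1%, at 1 to 10% and over 10%, and 0, 7 and 14 of WT. Mcl1 was found in 57 of 227 KO cells under 1% (25.1%, 19.6 to 31.3), in 453 of 722 at 1 to 10% (62.7%, 59.1 to 66.3) and in 29 of 40 over 10% (72.5%, 56.1 to 85.4). In WT the shares were 43.8% (19.8 to 70.1, 7 of 16), 67.5% (64.3 to 70.6, 598 of 886) and 63.2% (38.4 to 83.7, 12 of 19). Before thinning they were 40.2, 91.8 and 70.4% in KO and 62.5, 96.3 and 66.7% in WT. The KO cells under 1% had the lowest share of the 6 pools in both forms, though its thinned interval overlapped that of WT under 1%.

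Bax was found in nearly every thinned cell, with 94.3, 92.5 and 80.0% in KO and 93.8, 96.4 and 78.9% in WT (98.0, 99.3 and 87.3% and 100, 99.9 and 81.8% before thinning). Bak1, Bid and Bbc3 were found in 15.7 to 23.3% of thinned cells of 1 to 10%, Bcl2l11 in 6.65% of KO and 6.55% of WT, and Bcl2 in 0.416 and 0.451%. Bcl2l1 shares at 1 to 10% were 9.56% in KO and 9.14% in WT, closer than the levels. They were 16.1 and 11.6% when cells were thinned to 8000 UMIs and 40.2 and 29.2% before thinning, on other sets of cells. The part of depth, cell set and the random draw in these shares was not tested. The family is expressed in most cell types, so no cell type of these libraries served as a background for free RNA.

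**Figure D4:**
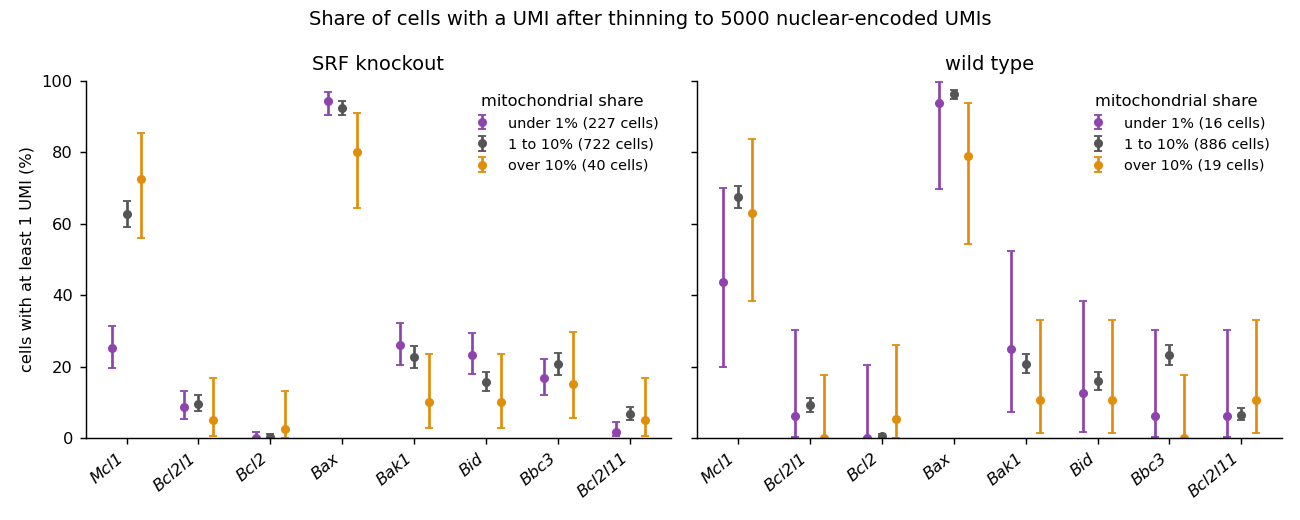
Percent of cells with at least 1 UMI (y axis, 0 to 100) of each of the 8 genes (x axis) after thinning to 5000 nuclear-encoded UMIs, in the knockout (left) and wild-type (right) library, by mitochondrial share. Bars are exact 95% binomial intervals; Mcl1 is at 25.1% in knockout cells under 1% and at 62.7% at 1 to 10%, and Bax is at 78.9% or more in all 6 pools.

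Expression noise, the subject named in the title of the series, was described for the 5 members whose thinned counts averaged 0.1 or more per cell at 1 to 10% in both libraries. The Fano factor, the variance divided by the mean, which is 1 for counting alone, was 1.29 in KO and 1.10 in WT for Mcl1, and 1.27 and 1.09 for Bax. The log2 ratio of the squared coefficient of variation, KO over WT, was 0.31 for Mcl1 and 0.48 for Bax, against a median of -0.03 over 4263 genes. Bbc3 (0.15), Bid (0.05) and Bak1 (-0.06) lay closer to that median. This coefficient is the Fano factor divided by the mean, so it also shifts with the mean. Thinned means in KO and WT were 1.107 and 1.157 for Mcl1, and 2.853 and 3.401 for Bax. Over all genes the median mean was 0.292 and 0.271, so the comparison was not matched for level. The Fano factor of Bbc3 was 1.119 in KO and 1.127 in WT. The part of the mean in these ratios was not tested. Bcl2 and Bcl2l11 were below the minimum in both libraries, and Bcl2l1 in WT (0.0959, against 0.107 in KO).

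The KO cells at 1 to 10% included cells of low Malat1 and cells that carried the primitive endoderm list. The part of these cells in the spread was not tested. The 155 KO cells with at least 2 UMIs of that list had Mcl1 at 177 CPM (164 to 191) and Bax at 426 CPM (405 to 447), and the other 576 had 243 CPM (235 to 251) and 628 CPM (615 to 641). Bcl2l11 was at 9.10 CPM (6.27 to 12.8) and 16.5 CPM (14.5 to 18.8), while Bcl2l1 (26.2 and 23.1 CPM), Bid (30.3 and 33.1 CPM), Bak1 (57.7 and 47.3 CPM) and Bbc3 (47.4 and 54.2 CPM) had overlapping intervals. The list-carrying KO cells were thus lower in Mcl1, Bax and Bcl2l11. In the 22 such WT cells Bax was at 546 CPM (487 to 609), against 691 CPM (680.1 to 702) in the other 871, while Mcl1 was at 243 CPM (204 to 286) and 219 CPM (213 to 225). Bbc3 was higher in those 22 WT cells, at 98.1 CPM (74.3 to 127) against 53.7 CPM (50.7 to 56.8), on 57 UMIs.

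A raised share of chromosome 8 in the UMIs, over 1.2 times the WT median, marked 368 of the 731 KO cells and 88 of the 893 WT cells at 1 to 10%. KO cells with and without it held Mcl1 at 225 CPM (215 to 235) and 234 CPM (223 to 244), and Bax at 553 CPM (537 to 568) and 622 CPM (605 to 639). Bcl2l1, at 22.5 and 25.04 CPM, had overlapping intervals. In WT, Mcl1 was at 188 CPM (171 to 207) with the raised share and 223 CPM (216 to 229) without it, and Bax at 652 CPM (619 to 686) and 691 CPM (680 to 703), with overlapping intervals for Bax only. Bcl2l1 remained higher in KO than WT when cells with the raised share were left out (0.73) and when list-carrying cells were left out (0.62).

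Related genes were counted by lists with the same limits. At 1 to 10%, KO over WT, the share of all genes called was 7.56% higher and 2.44% lower, as above. In that comparison 7 of 17 further Bcl2 family genes had at least 10 CPM, and of these 0 were higher and 1 lower, Bnip3 (-1.24, -1.34 to -1.14), which acts in mitophagy and is induced by hypoxia. Of 7 measured of 15 caspase, apoptosome and inhibitor of apoptosis genes, 0 were called, and so were 0 of 9 genes of a list on mitochondrial membranes and the release of their contents and 0 of 6 measured genes of MCL1 turnover. Of 14 measured p53 pathway genes, 3 were higher and 0 lower (Mdm2, the ubiquitin ligase of p53, 0.86; Sesn2 0.91; Perp 1.03), with a list median of 0.22. Of 8 genes of the integrated stress response, 3 were higher and 0 lower (Chac1 1.03; Atf3 0.98; Sesn2, a member of both lists), with a median of 0.48. Of the death receptor list, 2 of 10 were measured, and Pidd1 was higher (0.68).

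In the KO cells under 1%, against 1 to 10%, 35.4% of all genes were called lower and 14.9% higher, so calls were more frequent in general. Of 14 p53 pathway genes, 9 were lower and 1 higher, the gene of p53 itself (Trp53, 430 against 204 CPM, ratio 1.07, 0.98 to 1.17). The lower ones were Mdm4 (-2.11), Trp53inp1 (-1.35), Cdkn1a (-1.27), Zmat3 (-1.26), Sesn2 (-1.09), Gtse1 (-1.03), Perp (-0.88), Mdm2 (-0.87) and Ccng1 (-0.62), with a list median of -0.88 beside -0.15 over all genes. Of 6 measured genes of MCL1 turnover, 4 were lower and 1 higher. The lower ones were Usp9x (-2.08), which encodes a deubiquitinase of MCL1, Fbxw7 (-2.27) and Huwe1 (-0.98), which encode parts of its ubiquitin ligases, and Ube2q1 (-2.28), an E2 enzyme gene. Btrc, the gene of a further ligase subunit, was higher (0.71).

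Of the 9 genes on the list of mitochondrial membranes and release, 4 were higher in those cells and 2 lower. The higher ones were the channel genes Vdac1 (0.96), Vdac2 (0.61) and Vdac3 (0.92) and the BID receptor gene Mtch2 (0.66). The lower ones were Opa1 (-0.90) and Tmbim6 (-0.91), which is on this list but encodes a protein of the endoplasmic reticulum. Of 6 measured caspase and inhibitor genes, 2 were lower, Xiap (-2.97) and Birc6 (-1.78). Of 8 stress response genes, 4 were lower, Atf3 (-1.14), Sesn2, Ddit3 (-0.76) and Ppp1r15a (-0.65), and 1 higher, Asns (1.23). Of 7 further Bcl2 family genes, Bcl2l12 was higher (0.65) and 0 were lower, and Cradd, the 1 measured gene of the death receptor list, was higher (0.80).

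The genes of most like pattern were ranked by Pearson correlation of log2(CPM + 1) over the 10 bins, among 2370 genes of at least 50 CPM. For Mcl1 they were Mtdh, Dlc1 and Ptprf (each r = 0.99), all with their lowest level in the lowest KO bin, as Mcl1 had. For Bax the nearest was Rpl21 (0.98), a ribosomal protein gene with its lowest level in the highest KO bin. For Bcl2l1 they were Srgn (0.96), Cox7a1 (0.95) and Gm10116 (0.95), and for Bcl2l11 Gnai2 (0.94), Gna11 (0.93) and Tmem147 (0.93). The nearest genes had r from 0.88 to 0.90 for Bak1 (Slc25a4, Sfn and Emc8) and Bid (Dbi, Actr3 and Atg101), and from 0.83 to 0.89 for Bbc3 (Tmem222, 0610007P14Rik and Akirin2). The 10 bins share library, depth and mitochondrial share, so these values describe likeness only.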

How the data were processed

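Droplet libraries of KO and WT mouse iPSCs, 1 per genotype, were analysed. The deposited values are whole-number UMI counts per gene and cell, not normalised, per the file headers. Cell Ranger 2.0.0, Seurat 3.1.1 and the build mm10 (GRCm38) are named in the submitters' processing notes, with no role given for each; how droplets were called cells and reads of overlapping genes were counted is not given in the sources used here. Totals were 22277996 UMIs in KO and 24005849 in WT, with medians of 20605 and 25907 UMIs per cell.

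Counts were summed per library and mitochondrial band with Python 3.11.15, numpy 2.4.6 and scipy 1.17.1, and all ratios were computed on the whole table of genes and tried on simulated counts. Intervals are exact: Poisson for CPM, conditional on the total for ratios, Clopper-Pearson for shares. The limit for a count of 0 is 3 counts. Alternatives were TMM (edgeR 4.0.16) and median-of-ratios scaling, other denominators, cell weights, cell filters, band limits, folds, level minimums and thinning depths, and leaving out cells called doublets by Scrublet (scanpy 1.11.5; 3 KO and 4 WT cells, kept in the main values, a rate at which the caller cannot be taken to find doublets). Of 27998 gene identifiers, 27645 were matched to GENCODE M21 (GRCm38). The chromosome 8 share was taken over autosomal genes other than abundant and ribosomal protein genes.

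All 8 members are named; genes of the related lists are named where they passed 1.5-fold with an interval that excluded equality, for KO over WT at 1 to 10% and between the bands of KO (those of the small WT pools are not named), and 3 like genes per member, except that for Bax only the nearest is reported here. The members and lists were chosen with earlier results of these data known. The Malat1 limit and the removal of the cell richest in Bbc3 were chosen after the values were seen. Scaling moved the median of all genes: for KO cells under 1% over 1 to 10% it was -0.15, and 0.18 with TMM and 0.33 with median-of-ratios.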

Additional observations from a re-analysis of the deposited data

Results flagged for a closer look

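Bax, Bbc3 and Bcl2l11 moved in opposite directions in the 2 libraries when cells under 1% mitochondrial share were set against cells of 1 to 10%; with 1 library per genotype this difference was not tested. For Bax the log2 ratio was 0.11 in KO and -0.27 in WT, a difference of 0.38. For Bbc3 it was -0.45 in KO and 1.30 in WT, a difference of -1.75. For Bcl2l11 it was -0.92 in KO and 1.80 in WT, a difference of -2.72. The WT values of Bbc3 and Bcl2l11 were carried by 1 cell of 58626 UMIs, and without it they were 0.12 and -1.04, the latter in the same direction as KO.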

How the results depend on the processing

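Of the member ratios under all alternatives, 1079 moved by less than their counting interval, 68 by more, and 5 values past 1.5-fold changed sign, all on small pools. Bak1 in cells over 10% over cells of 1 to 10% became 0.11 in KO and 0.16 in WT in cells of at least 10000 UMIs. Bcl2l11 in WT became -0.93 under 1% with a lower limit of 0.5%, -1.04 there without the cell richest in Bbc3, and -0.00505 over 10% with median-of-ratios scaling. Of the thinned shares, 63 kept their value within its interval and 81 moved with the thinning depth.

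For KO over WT at 1 to 10%, the count of higher members was 0 at 50 CPM, at a fold of 2 and with median-of-ratios scaling, which put the members' median at -0.11. For KO over WT under 1%, it was 0 at 50 CPM, at a fold of 2, with usual chromosome 8 share, with each cell weighted alike, with a lower limit of 0.5%, without ribosomal protein UMIs and without the cell richest in Bbc3, and 2 with median-of-ratios scaling. For KO over WT over 10%, higher members numbered 3 with TMM and at a fold of 1.2, and 1 with at least 2000 genes, at least 10000 UMIs, usual chromosome 8 share, each cell weighted alike and without primitive endoderm cells. Lower members there numbered 0 with TMM, at 50 CPM, at a fold of 2, with each cell weighted alike and with an upper limit of 5%, 2 over all UMIs, with usual chromosome 8 share, at a fold of 1.2 and with an upper limit of 20%, and 3 with at least 10000 UMIs.

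Within KO, for cells under 1% over 1 to 10%, the count of higher members was 1 with TMM and at a fold of 1.2, and 2 with median-of-ratios scaling. Lower members numbered 1 with TMM, with median-of-ratios scaling, at 50 CPM, at a fold of 2 and with a lower limit of 2%, and 4 at a fold of 1.2 and with at least 10000 UMIs. The median of the members was 0.11 at 50 CPM and -0.00144 with median-of-ratios scaling. For KO cells over 10% over 1 to 10%, 1 member was higher at 1 CPM, and lower members numbered 0 at 50 CPM and with an upper limit of 5%, 2 with usual chromosome 8 share, 3 with at least 2000 genes and without primitive endoderm cells, 4 with TMM, without ribosomal protein UMIs, at a fold of 1.2 and with an upper limit of 20%, and 5 over all UMIs and with median-of-ratios scaling. Except where fewer genes or another fold set the count, the cause was not tested.

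No paired analysis was possible because a lone library stands for either genotype. Depth limits the WT pool under 1% (16 cells) and both pools over 10%, where members other than Mcl1 and Bax gave at most 15 UMIs.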

Other observations

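KO cells over 10% mitochondrial share were set against KO cells of 1 to 10% for the related lists, on small counts. In this comparison the median of all genes was 0.38, 40.5% of genes were at least 1.5-fold higher and 8.69% lower, and summed macrophage markers stood at 494 CPM in the cells over 10%. The part of these RNAs in the values was not tested. Of 15 measured p53 pathway genes, 5 were at least 1.5-fold higher and 0 lower: Trp53inp1 (1.92), Eda2r (1.87), Mdm4 (1.43), Ccng1 (1.03) and Mdm2 (0.81). The list median, 0.16, lay below that of all genes. Aifm1, which encodes apoptosis-inducing factor (2.40), Tmbim6, a Bax inhibitor of the endoplasmic reticulum (1.76), and the death receptor gene Tnfrsf10b (2.10) were higher as well. Of the genes of MCL1 turnover, Usp9x (1.55) and Huwe1 (1.25) were higher and Ube2q1 (-1.24) and March5 (-0.69) lower. Usp9x and Huwe1 had been lower in KO cells under 1%, and Ube2q1 was lower in both. Of 7 further Bcl2 family genes measured, 2 were at least 1.5-fold higher and 3 lower. Those with an interval that excluded equality were Bcl2a1b, known from myeloid cells, higher on 12 UMIs (4.19), and Bnip3, lower on 6 (-1.96). Of 9 measured caspase and inhibitor genes, 6 were at least 1.5-fold higher and 1 lower. Those with an interval that excluded equality were Casp2 (1.73), Birc6 (1.06) and Htra2 (1.004), higher, and Birc5 (-0.61), lower. Of the stress response list, Asns (0.82) was higher and Chac1 (-1.13) lower.

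The few cells left out by the Col1a2, Col3a1 and Acta2 limit had Mcl1 at 126 CPM (99.3 to 158) in 22 KO cells and 180 CPM (121 to 256) in 10 WT cells, and Bax at 527 CPM in both. Bcl2 gave 9 UMIs in the 22 KO cells, 15.2 CPM (6.93 to 28.8), against 18 UMIs in the 731 KO cells of 1 to 10%. Bid gave 3 UMIs there, 5.05 CPM (1.04 to 14.8), against 32.6 CPM in those cells.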
